A study of Mus musculus with 11 samples.

Results

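The genes described here are 49 genes of the secretory pathway and the unfolded protein response, chosen by name from the genes an array of 39429 mouse probes can read. All 49 were measured, by 63 probes, and every gene's brightest probe was well above background on all 11 arrays, with no saturated spot. They make up 49 of the 20182 genes tested. RNA came from lymph node lymphomas of mice of the Black 6 strain with the genotype c-myc-3'RR/p53+/-. The mice of every group thus carried a c-myc transgene under the 3' regulatory region (3'RR) of the immunoglobulin heavy chain locus. This region is a B cell enhancer cluster. The mice also lacked 1 of the 2 copies of p53. The p53 copies of the tumours themselves were not examined here. By type, 4 tumours were plasma cell lymphoma (PCL), 3 mantle cell lymphoma (MCL) and 4 Burkitt lymphoma (BL). The labels call all of them mature B cell tumours and give no age, treatment or animal number, so that a p-value here speaks only of the spread among these arrays, part of which may be technical. Tumours are named by type and replicate number, as in PCL1, and all types share 1 genetic model, with no normal B cells beside them.

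Newly made secreted and membrane proteins enter the endoplasmic reticulum through the Sec61 channel, where signal peptides are cut off and sugars added, chaperones fold the chain, and oxidoreductases form its disulphide bonds. Chains that fail to fold are drawn back through the membrane by the ERAD machinery, ubiquitinated and degraded, and folded cargo leaves in COPII vesicles. When unfolded protein builds up, the sensors Ire1 (encoded by Ern1), Perk (Eif2ak3) and Atf6 raise the output of these genes through Xbp1, Atf4 and cleaved Atf6. Plasma cells, which secrete antibody in bulk, are known for an enlarged endoplasmic reticulum built by the Xbp1 branch of this response.

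The ERSE is the element by which Atf6 and Xbp1 are known to act on chaperone promoters. It reads CCAAT, then 9 bases of any kind (N), then CCACG, and its exact copies in member promoters are shown first. RefSeq promoters of assembly GRCm38.p6, 250 bases before to 50 bases after the gene start, were held for 41 of the 49 members, all but Sec11c, Atf6, Manf, Ssr2, Derl1, Spcs3, Hyou1 and Sec61a1. On either strand, 10 of the 41 members (24.4%) held an exact ERSE, against 37 of 27025 genes (0.137%) and 0.119% of all promoters. These were the chaperone genes Hspa5, Hsp90b1, Calr, Canx, Dnajc3 and Creld2, the oxidoreductase genes Pdia6 and Ero1lb and the degradation genes Derl3 and Syvn1. The 37 genes include these 10. Members were chosen by name as genes of this response, so their larger share is a description and not a result of these data. The sequences below run 5′ to 3′ on the gene's strand, with the CCAAT and CCACG parts in capitals. A match on the other strand therefore reads CGTGG, 9 bases, ATTGG.
Hspa5: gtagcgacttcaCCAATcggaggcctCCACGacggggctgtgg
Hsp90b1, far copy: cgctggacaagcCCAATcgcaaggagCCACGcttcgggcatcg
Hsp90b1, near copy: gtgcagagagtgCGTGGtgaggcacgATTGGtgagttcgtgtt
Calr: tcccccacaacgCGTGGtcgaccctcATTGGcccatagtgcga
Ero1lb: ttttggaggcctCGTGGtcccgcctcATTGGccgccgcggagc
Pdia6: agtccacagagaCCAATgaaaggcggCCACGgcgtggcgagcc
Derl3: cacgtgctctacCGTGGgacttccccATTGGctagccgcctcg

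These windows lie on GRCm38.p6 at chr2:34772013-34772055 on the plus strand for Hspa5, at chr10:86705626-86705668 and chr10:86705521-86705563 on the minus strand for Hsp90b1, and at chr8:84847063-84847105 on the minus strand for Calr. The window of Ero1lb is chr13:12565670-12565712, that of Pdia6 chr12:17266479-17266521 and that of Derl3 chr10:75893230-75893272, all on the plus strand. All 11 copies lay upstream of the gene start, and Hsp90b1 was the 1 member with 2 of them. The nearest to its gene start was that of Syvn1, which ended 25 bases before it, and the farthest was the far copy of Hsp90b1, which began 212 bases before it. CCAAT alone, which is part of the ERSE, was in 34 of the 41 promoters (82.9%, against 41.1% of genes), and TGACGTG, the core of the element UPRE, in those of Fkbp11, Hspa5 and Sec24d (7.32%, against 2.22%), both searched on either strand. A match is a stretch of letters and shows no binding. Of the 10 members with an ERSE, 7 had a higher mean in PCL than in MCL, with a median difference of 0.35 log2 units, and 8 a higher mean in PCL than in BL, with a median of 0.50. Among the 31 members whose promoter held none, 17 and 19 did, with medians of 0.04 and 0.15. The 2 sets also differ in role: the 10 are mainly chaperone and oxidoreductase genes. The 31 include every translocation, COPII and sensor gene that had a promoter. The part of role in this split was not tested. None of the 10 had an adjusted p under 0.05 in either contrast, and of the 31 only Pdia3 did, against MCL.

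**Figure D1:**
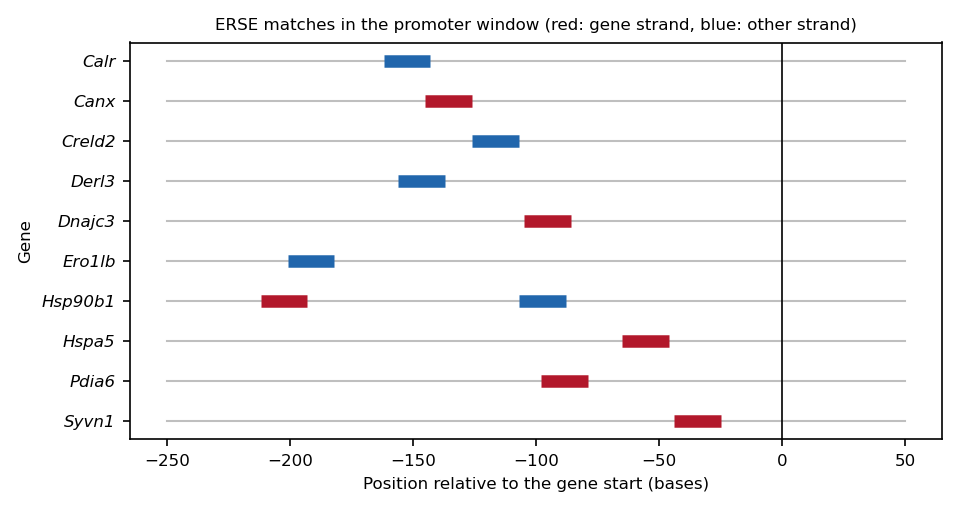
Exact ERSE copies in the promoters of 10 member genes, drawn to scale as bars along the window from 250 bases before to 50 bases after the gene start (x axis, in bases). Red bars are copies on the gene's strand and blue bars copies on the other strand; all 11 lie before the gene start.

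Values below are log2 processed signals minus the log2 of the array's 75th percentile, so a value of 0 is a probe as bright as that percentile, and 1 unit is a doubling. Probes differ in brightness for reasons of their own, so values are compared between tumours for a gene, never between genes. Genes were fitted together on the 11 arrays with limma, and those with an adjusted p (Benjamini-Hochberg, 20182 genes) below 0.05 are said to be called. The moderated F test among the 3 types called 3 of the 49 members, or 6.12%, against 8.37% of all genes. They were Hsp90b1 (adjusted p = 0.0449), Pdia3 (adjusted p = 0.0222) and Atf6 (adjusted p = 0.0466). PCL against MCL called 2 members, Pdia3 and Atf6, which is 4.08% against 6.85% of all genes. Both were higher in PCL. Of all genes tested, 2.11% were called and higher in PCL. Neither PCL against BL nor MCL against BL called any, where all genes gave 0.659% and 6.62%. At an unadjusted p under 0.05, 14 of 49 members passed between PCL and MCL, against 24.3% of all genes, 11 between PCL and BL, against 17.6%, and 1 between MCL and BL, against 18.4%.

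Directions are set beside those of all genes here. The median member was 0.18 log2 units higher in PCL than in MCL, and the median over all genes was -0.03. Of the members 29 of 49 were higher (59.2%), against 48.1% of all genes. Without PCL3 the members' median was 0.062 and without PCL4 0.095, each with 27 higher. Against BL the median member was 0.24 higher in PCL, and the median of all genes was 0.09. Of the members 32 of 49 were higher (65.3%), against 58.7% of all genes. With arrays centred on their own medians the 2 medians were -0.03 and -0.17. In that setting 23 of 49 members and 6705 of 20182 genes were higher in PCL. Between MCL and BL the medians were 0.07 for the members and 0.06 for all genes, or -0.18 and -0.19 with that centring. In 16 of 49 members the PCL and MCL tumours did not overlap, or 32.7%, against 22.8% of all genes. PCL was the higher type in 11 of them, as it was without overlap in 9.11% of all genes. PCL and BL did not overlap in 6 members (12.2%, against 11%), and neither did MCL and BL (12.2%, against 17.7%). The 95% interval of the difference stayed within a doubling either way for 21 members between PCL and MCL, 24 between PCL and BL and 30 between MCL and BL.

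**Figure D2:**
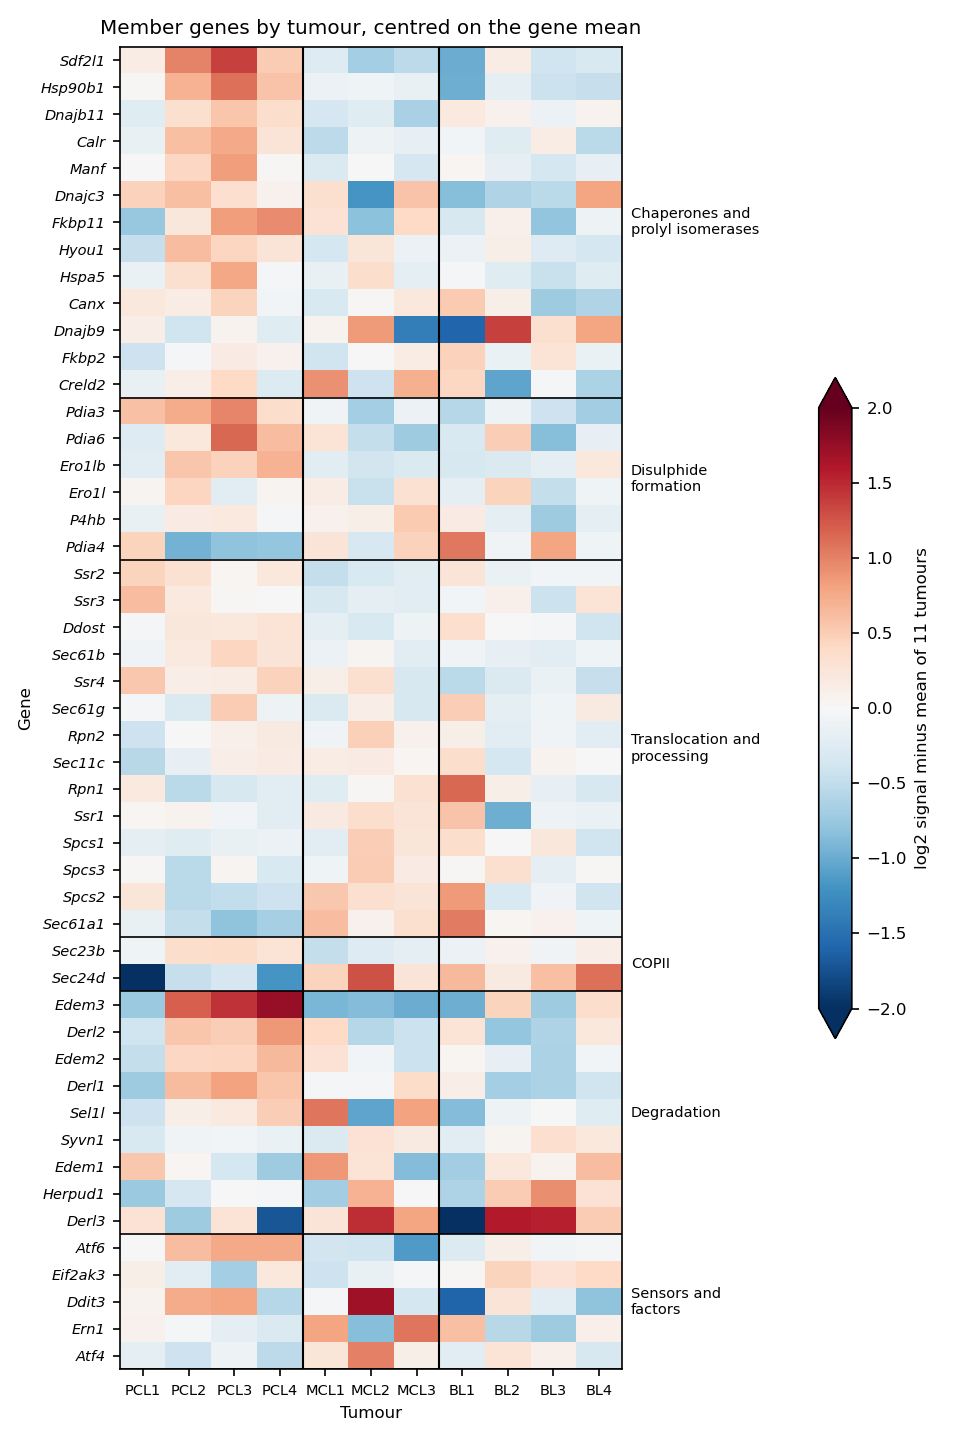
Log2 signal of the 49 genes (rows, by role and then by the PCL minus MCL difference) in the 11 tumours (columns), each gene centred on its mean; colours are cut at 2 units either way. PCL2, PCL3 and PCL4 are red in most chaperone rows, and PCL1 is paler or blue in many of the same rows.

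Which tumours were left out decided the calls. Without PCL1, 9 members were called between PCL and MCL, among 12.4% of all genes, 6 between PCL and BL, among 5.44%, 9 by the F test, among 14.3%, and 0 between MCL and BL, among 6.9%. Without BL1 the count between PCL and MCL was 4, among 1488 genes called, without MCL1 or BL3 it was 1, among 654 and 1103, and without PCL2, PCL3, PCL4, MCL2 or MCL3 it was 0, among 330 to 648. The F test called 0 members without PCL2 or PCL3, among 714 and 850 genes, and 1 without any 1 of the other tumours except PCL1, among 671 to 1567. Without MCL2 the PCL against BL comparison called 1 member, among 122 genes. Each type was hybridised on a slide of its own, so lymphoma type and slide cannot be told apart in any of these comparisons. The 2 contrasts of PCL share its 4 arrays, and their values are given side by side below. Values without PCL1 are also given for some genes. PCL1 was singled out after its values were seen, so calls made without it are described and not taken as support.

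Chaperones and their helpers are the 13 genes that bind and fold the new chain. Of them, 12 of 13 had a higher mean in PCL than in MCL, where 48.1% of all genes did. Against BL 11 of 13 did, where 58.7% of all genes did. The median differences were 0.36 from MCL and 0.48 from BL. These medians kept their sign under all 23 other ways of processing, but without PCL3 they were 0.22 and 0.30, and against BL with arrays centred on their medians 0.21. None of the 13 was called in either contrast. Unadjusted, 5 had a p under 0.05 against MCL, where 24.3% of all genes did, and 4 against BL, where 17.6% did. PCL3 held the highest value of all 11 tumours in 6 of them, Hspa5, Hsp90b1, Calr, Dnajb11, Sdf2l1 and Manf. Over all genes PCL3 was highest in 8.62%.

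Hsp90b1 encodes Grp94, the Hsp90 of the endoplasmic reticulum, which folds Toll-like receptors and integrins. Its probe, at chr10:86153770-86153829 of build mm9, read 4.57, 5.24, 5.65 and 5.10 in PCL1 to PCL4, then 4.42, 4.46 and 4.39 in the MCL tumours and 3.56, 4.36, 4.11 and 4.08 in the BL tumours. No PCL tumour overlapped with either other type, with PCL1 the lowest of the 4, and the MCL tumours lay within 0.1 of each other. PCL minus MCL was 0.72 ± 0.26 (standard error, adjusted p = 0.132), a ratio of 1.64, and PCL minus BL was 1.11 ± 0.24 (adjusted p = 0.068), a ratio of 2.16. Without PCL1 the differences were 0.91 and 1.30, at adjusted p = 0.037 and 0.0143. Over the 23 other settings adjusted p ran from 0.0221 to 0.284 against MCL and from 0.011 to 0.195 against BL. The call by the F test was lost under 15 of 22 other settings.

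Sdf2l1 encodes a soluble partner of the Hsp40 chaperones of the organelle. It read 1.04, 1.87, 2.24 and 1.40 in the PCL tumours, 0.62, 0.21 and 0.36 in the MCL tumours and -0.11, 1.02, 0.48 and 0.58 in the BL tumours. All 4 PCL tumours lay above all 7 others, PCL1 just above BL2. The differences of 1.24 ± 0.33 from MCL (adjusted p = 0.0514) and 1.14 ± 0.30 from BL (adjusted p = 0.106) missed the threshold, and without PCL1 they were 1.44 (adjusted p = 0.0211) and 1.34 (adjusted p = 0.0361).

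Hspa5 encodes BiP, the Hsp70 of the endoplasmic reticulum that also holds the stress sensors inactive. Its values were 5.05, 5.50, 5.95 and 5.16 in PCL, 5.02, 5.52 and 4.99 in MCL, and 5.15, 4.92, 4.72 and 4.93 in BL. MCL2 was as high as PCL2, so that PCL and MCL overlapped. The differences were 0.24 (95% interval -0.31 to 0.79) from MCL and 0.48 (-0.03 to 0.99) from BL. Hspa5 was thus not called, with an adjusted p of 0.359 in the F test.

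Dnajb11, an Hsp40 that hands clients to BiP, read 2.44, 2.99, 3.22 and 3.03 in PCL, 2.34, 2.44 and 2.03 in MCL and 2.87, 2.76, 2.55 and 2.75 in BL. Here MCL stood lowest, below every BL tumour, and PCL1 tied with MCL2. PCL minus MCL was 0.65 ± 0.21 (adjusted p = 0.0921), and without PCL1 it was 0.81 ± 0.18 (adjusted p = 0.0202). A second, dim probe of Dnajb11, well above background on 4 arrays, gave -0.22 for this difference, and -0.99 for PCL minus BL, where the brightest probe gave 0.19. Calr, the calcium-binding lectin chaperone calreticulin, read 3.61, 4.35, 4.52 and 4.01 in PCL, 3.23, 3.65 and 3.58 in MCL and 3.69, 3.51, 3.91 and 3.21 in BL. PCL2, PCL3 and PCL4 lay above all 7 others and PCL1 among them, with differences of 0.64 ± 0.25 (adjusted p = 0.161) and 0.54 ± 0.24 (adjusted p = 0.269). The remaining 8 chaperone genes had differences between -0.38 and 0.52 from MCL and between -0.33 and 0.68 from BL.

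Disulphide formation had the member with the smallest p in the F test. Pdia3, also called ERp57, is the thiol oxidoreductase that works with calnexin and calreticulin on glycoproteins and sits in the peptide-loading complex of MHC class I. At chr2:121263343-121263402 (mm9) it read 2.25, 2.40, 2.64 and 2.01 in PCL, 1.60, 0.99 and 1.54 in MCL and 1.09, 1.56, 1.26 and 0.97 in BL. The lowest PCL tumour was PCL4, and all 4 lay above all 7 others; PCL1 was the second lowest. PCL exceeded MCL by 0.95 ± 0.23 (95% interval 0.44 to 1.46, adjusted p = 0.0388), a ratio of 1.93. Against BL the difference was 1.10 ± 0.21 (0.63 to 1.58, adjusted p = 0.0528), just short of the threshold, and MCL and BL differed by 0.15 (-0.36 to 0.67). The direction held under all 23 other settings, between 0.75 and 1.06, and the call against MCL was lost under 13 of them, with adjusted p from 0.0217 to 0.131.

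Ero1lb encodes an oxidase that recharges the protein disulphide isomerases. Its values were 1.22, 1.98, 1.89 and 2.13 in PCL, 1.20, 1.06 and 1.15 in MCL and 1.11, 1.15, 1.25 and 1.65 in BL. PCL2, PCL3 and PCL4 were above every other tumour, while PCL1 lay just above the highest MCL tumour. The difference from MCL was 0.67 ± 0.24 (adjusted p = 0.118) with PCL1 and 0.86 ± 0.19 (adjusted p = 0.0198) without it. P4hb, the archetypal protein disulphide isomerase, gave 3.07, 3.39, 3.41 and 3.19 in PCL, 3.30, 3.34 and 3.74 in MCL and 3.38, 3.01, 2.51 and 3.04 in BL. The 3 types overlapped, and P4hb differed by -0.20 (-0.69 to 0.30) from MCL and 0.28 (-0.18 to 0.74) from BL.

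Pdia4, also called ERp72, ran the other way among the oxidoreductases. It read 0.67, -0.72, -0.59 and -0.55 in PCL, 0.49, -0.10 and 0.68 in MCL and 1.28, 0.15, 1.01 and 0.14 in BL. PCL2, PCL3 and PCL4 lay below all 7 others and PCL1 among them. PCL minus MCL was -0.65 ± 0.41 (adjusted p = 0.361) and PCL minus BL -0.94 ± 0.38 (adjusted p = 0.235), and without PCL1 these were -0.98 (adjusted p = 0.0982) and -1.26 (adjusted p = 0.0558). Pdia6 had differences of 0.73 and 0.64 at its brightest probe and 1.49 and 1.06 at the other, and Ero1l of 0.07 and 0.15. Over the 6 genes the median difference was 0.37 from MCL and 0.40 from BL, with 4 and 5 of 6 higher in PCL. Without MCL2 the first was 0.24, and with arrays centred on their medians the second was 0.13.

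**Figure D3:**
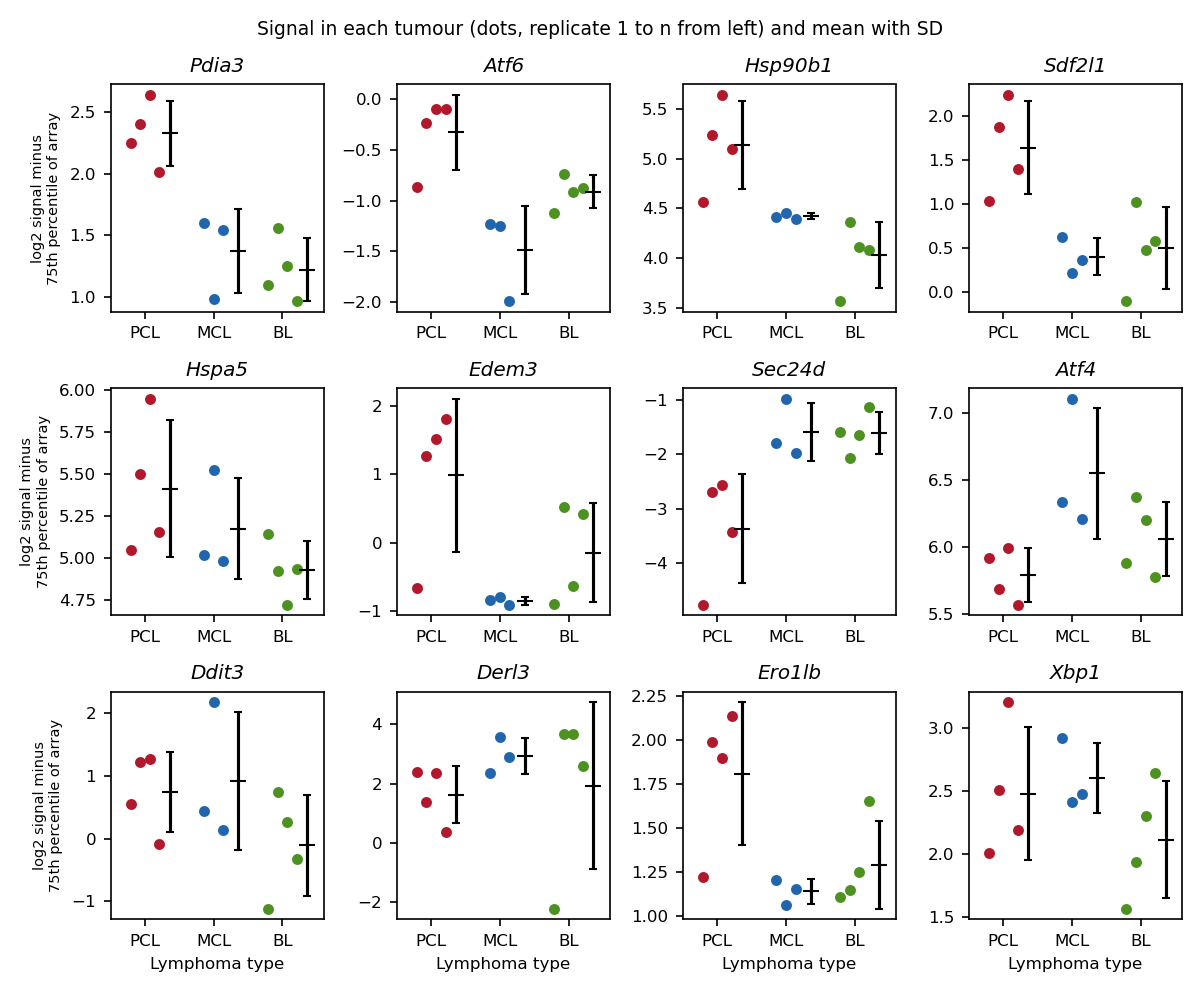
Log2 signal minus the array's 75th percentile (y axis, a scale of its own per panel) for 12 genes in each tumour (dots, in replicate order) by lymphoma type, with the mean and SD of the type (black; n = 4 PCL, 3 MCL, 4 BL). All PCL dots lie above all others for Pdia3, Hsp90b1 and Sdf2l1 and below all others for Sec24d; the MCL2 dot is the highest for Atf4 and Ddit3.

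Translocation and processing genes, the 14 that make up the channel, the signal peptidase, the translocon-associated TRAP complex and the oligosaccharyltransferase, showed no common direction. Of them, 6 were higher in PCL than in MCL, with a median of -0.21 (-0.069 without PCL1, -0.11 without MCL2 and -0.018 with the probes of a gene averaged), and 7 higher in PCL than in BL, with a median of -0.01. None was called. The sign of the median against BL turned under 5 other settings.

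Sec61a1, the pore subunit of the channel, read 4.00, 3.68, 3.35 and 3.49 in PCL, 4.77, 4.24 and 4.47 in MCL and 5.19, 4.20, 4.24 and 4.06 in BL. All 4 PCL tumours lay below all 7 others, PCL1 the closest to them, at differences of -0.86 ± 0.29 from MCL (adjusted p = 0.104) and -0.79 ± 0.27 from BL (adjusted p = 0.17). Sec61b, the small beta subunit, had 5.92, 6.19, 6.43 and 6.25 in PCL, 5.87, 6.04 and 5.79 in MCL and 5.93, 5.83, 5.79 and 5.91 in BL. PCL2 to PCL4 were above all 7 others by its brightest probe, and the differences of 0.30 (-0.07 to 0.66) and 0.33 (-0.0019 to 0.67) did not pass. Another probe of Sec61b put PCL 0.10 below MCL.

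The TRAP complex helps chains through the channel, and its subunits Ssr2 and Ssr4 had their highest means in PCL. Ssr2 read 3.73, 3.60, 3.33 and 3.50 in PCL, 2.82, 2.99 and 3.07 in MCL and 3.55, 3.16, 3.24 and 3.23 in BL. MCL lay below both other types without overlap, and PCL exceeded it by 0.58 ± 0.17 (adjusted p = 0.0675). Ssr4 read 4.67, 4.26, 4.28 and 4.59 in PCL, 4.25, 4.45 and 3.81 in MCL and 3.58, 3.83, 4.00 and 3.67 in BL. PCL and BL did not overlap for Ssr4, 0.68 ± 0.19 apart (adjusted p = 0.112). PCL1 held the highest value of all tumours for Ssr2, Ssr3 and Ssr4. For Ssr1 the brightest probe gave -0.31 against MCL and 0.12 against BL, and its other probes gave 0.21 and 0.56 against MCL and 1.02 and 1.30 against BL, so its direction against MCL rests on the probe.

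BL1 had the highest value of the 11 tumours in 6 of the 14 translocation genes, Sec61a1, Ssr1, Spcs2, Sec11c, Rpn1 and Ddost. In all it was highest in 9 of the 49 members, while it was highest in 12% of all genes. Rpn1, an oligosaccharyltransferase subunit, read 5.74 in BL1 and 4.04 to 4.89 in the other tumours. With the genes centred on their means, the median of the 14 was 0.34 in BL1 and between -0.15 and 0.15 in the other tumours. These genes were singled out after their values were seen.

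The COPII coat genes moved apart from each other. Sec24d encodes a cargo adaptor of the coat. It read -4.78, -2.70, -2.57 and -3.43 in PCL, -1.80, -0.97 and -1.98 in MCL and -1.59, -2.06, -1.64 and -1.13 in BL. All PCL tumours lay below all others, and PCL1 was by far the lowest. The differences were -1.79 ± 0.50 from MCL (adjusted p = 0.0625), a ratio of 3.45 in favour of MCL, and -1.76 ± 0.47 from BL (adjusted p = 0.106). Without PCL1 the difference from MCL was -1.32 ± 0.35, smaller and with less spread, and passed (adjusted p = 0.0421). Sec23b, the coat's GTPase-activating subunit, read 2.46, 2.89, 2.91 and 2.82 in PCL, 2.07, 2.29 and 2.36 in MCL and 2.43, 2.64, 2.48 and 2.68 in BL. MCL was lowest, below every BL and PCL tumour, and PCL minus MCL was 0.53 ± 0.17 (adjusted p = 0.0877), or 0.63 ± 0.16 without PCL1 (adjusted p = 0.0319).

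Degradation genes, 9 in all, split by member. Their median was -0.18 between PCL and MCL, with 4 higher in PCL, a sign that turned without any 1 of the MCL tumours, to between 0.070 and 0.18. Without PCL1 or PCL4 this median was -0.0093 and -0.018. Between PCL and BL the median was 0.40, with 5 higher, or 0.21 without BL1, 0.21 by the authors' values and 0.13 with arrays centred on their medians. None was called. Edem3 encodes a mannosidase that trims sugars to mark misfolded glycoproteins for disposal. It read -0.66, 1.28, 1.52 and 1.82 in PCL, -0.84, -0.80 and -0.91 in MCL and -0.91, 0.52, -0.63 and 0.42 in BL. PCL2, PCL3 and PCL4 were above all other tumours, and PCL1 lay at the level of MCL and of BL3. PCL minus MCL was 1.84 ± 0.57 (adjusted p = 0.0834) with all tumours, and 2.39 ± 0.38 (adjusted p = 0.00715) without PCL1. Against BL the values were 1.14 ± 0.53 (adjusted p = 0.302) and 1.69 ± 0.36 (adjusted p = 0.0323).

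Its relative Edem2 gave -2.92, -2.03, -2.01 and -1.79 in PCL, -2.15, -2.50 and -2.87 in MCL and -2.41, -2.61, -3.08 and -2.49 in BL. Again PCL2 to PCL4 were the highest and PCL1 among the lowest, with differences of 0.32 (-0.35 to 0.99) and 0.46 (-0.16 to 1.08). Derl1, a membrane protein of the retrotranslocation channel, read 0.60, 1.95, 2.12 and 1.88 in PCL, 1.29, 1.27 and 1.68 in MCL and 1.45, 0.64, 0.68 and 0.92 in BL. PCL1 was the lowest of all 11 and the other PCL tumours were the highest. PCL minus BL was 0.71 ± 0.34 (adjusted p = 0.307) with PCL1 and 1.06 ± 0.23 (adjusted p = 0.0331) without it, and the other probe of Derl1 gave -0.11 for PCL minus MCL where this one gave 0.22. Derl2 had 2.19, 3.14, 3.07 and 3.44 in PCL, 2.98, 2.01 and 2.15 in MCL and 2.85, 1.81, 1.97 and 2.80 in BL. The same PCL tumours were highest, and the differences were 0.58 (-0.28 to 1.44) and 0.60 (-0.19 to 1.40).

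Derl3, the family member that secretory cells express, was chosen for description after its values were seen. It read 2.38, 1.38, 2.36 and 0.38 in PCL, 2.35, 3.56 and 2.89 in MCL and -2.21, 3.67, 3.65 and 2.60 in BL. BL1 stood far below the other 10 tumours and PCL4 was the next lowest, so the SD within BL, 2.81, was the largest of any member in any type. PCL minus MCL was -1.31 (-4.12 to 1.50). Herpud1, a scaffold of the ERAD ligase, lay lower in PCL1, at 3.43, than in any other tumour, and its highest value was 5.10, in BL3. The remaining degradation genes, Sel1l, Syvn1 and Edem1, had differences between -0.21 and -0.18 from MCL and between -0.24 and 0.40 from BL.

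Among the sensors and the transcription factors they act through, Atf6 was called. Atf6 is a membrane-bound factor that is cut free in the Golgi and drives chaperone genes. At chr1:172635311-172635370 (mm9) its probe read -0.87, -0.23, -0.10 and -0.09 in PCL, -1.22, -1.25 and -1.99 in MCL and -1.12, -0.73, -0.91 and -0.87 in BL. PCL lay above MCL without overlap, MCL below BL without overlap, and PCL1 was at the level of BL. PCL exceeded MCL by 1.17 ± 0.26 (0.59 to 1.74, adjusted p = 0.0291), a ratio of 2.24, and BL by 0.59 ± 0.24 (adjusted p = 0.238). Without PCL1 these were 1.35 (adjusted p = 0.00925) and 0.77 (adjusted p = 0.0718). Under the other settings the difference from MCL ran from 0.91 to 1.49, and the call was lost under 10 of 23. The call of Atf6 by the F test was lost under 16 of 22.

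Neither enzyme sensor was called. Ern1, the gene of Ire1, read -1.86, -1.99, -2.14 and -2.24 in PCL, -1.16, -2.81 and -0.87 in MCL and -1.35, -2.50, -2.65 and -1.85 in BL. The PCL tumours were close together, and MCL held both the highest value and the lowest. Eif2ak3, the gene of Perk, read 0.76, 0.43, -0.04 and 0.86 in PCL, 0.23, 0.50 and 0.62 in MCL and 0.68, 1.10, 0.94 and 1.04 in BL. BL lay above MCL without overlap, 0.49 apart (adjusted p = 0.314).

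Atf4 is the factor translated when Perk acts, and Ddit3 (Chop) one of its targets. Atf4 read 5.92, 5.69, 5.99 and 5.57 in PCL, 6.33, 7.11 and 6.21 in MCL and 5.88, 6.38, 6.20 and 5.78 in BL. All PCL tumours lay below all MCL tumours, with a difference of -0.76 ± 0.25 (adjusted p = 0.101), and MCL2 stood highest. Ddit3 read 0.55, 1.22, 1.27 and -0.08 in PCL, 0.45, 2.18 and 0.14 in MCL and -1.12, 0.74, 0.27 and -0.32 in BL. MCL2 was again the highest, and the types overlapped. MCL2 had an RNA integrity number of 8, where the other tumours had 9 or 10. With that number as a covariate the Atf4 difference from MCL was -0.69 and was called (adjusted p = 0.0255). The same setting lost the call of Pdia3 against MCL and those of Hsp90b1 and Atf6 by the F test. MCL2 was the highest of the 11 tumours for 6 members, and for 16.3% of all genes. It was the lowest for 5 members, Ern1, Dnajc3, Fkbp11, Ero1lb and Sel1l, and for 8.3% of all genes. Sel1l stood at -2.26 against -0.13 and -0.40 in MCL1 and MCL3. The part of RNA quality in these single values was not tested.

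**Figure D4:**
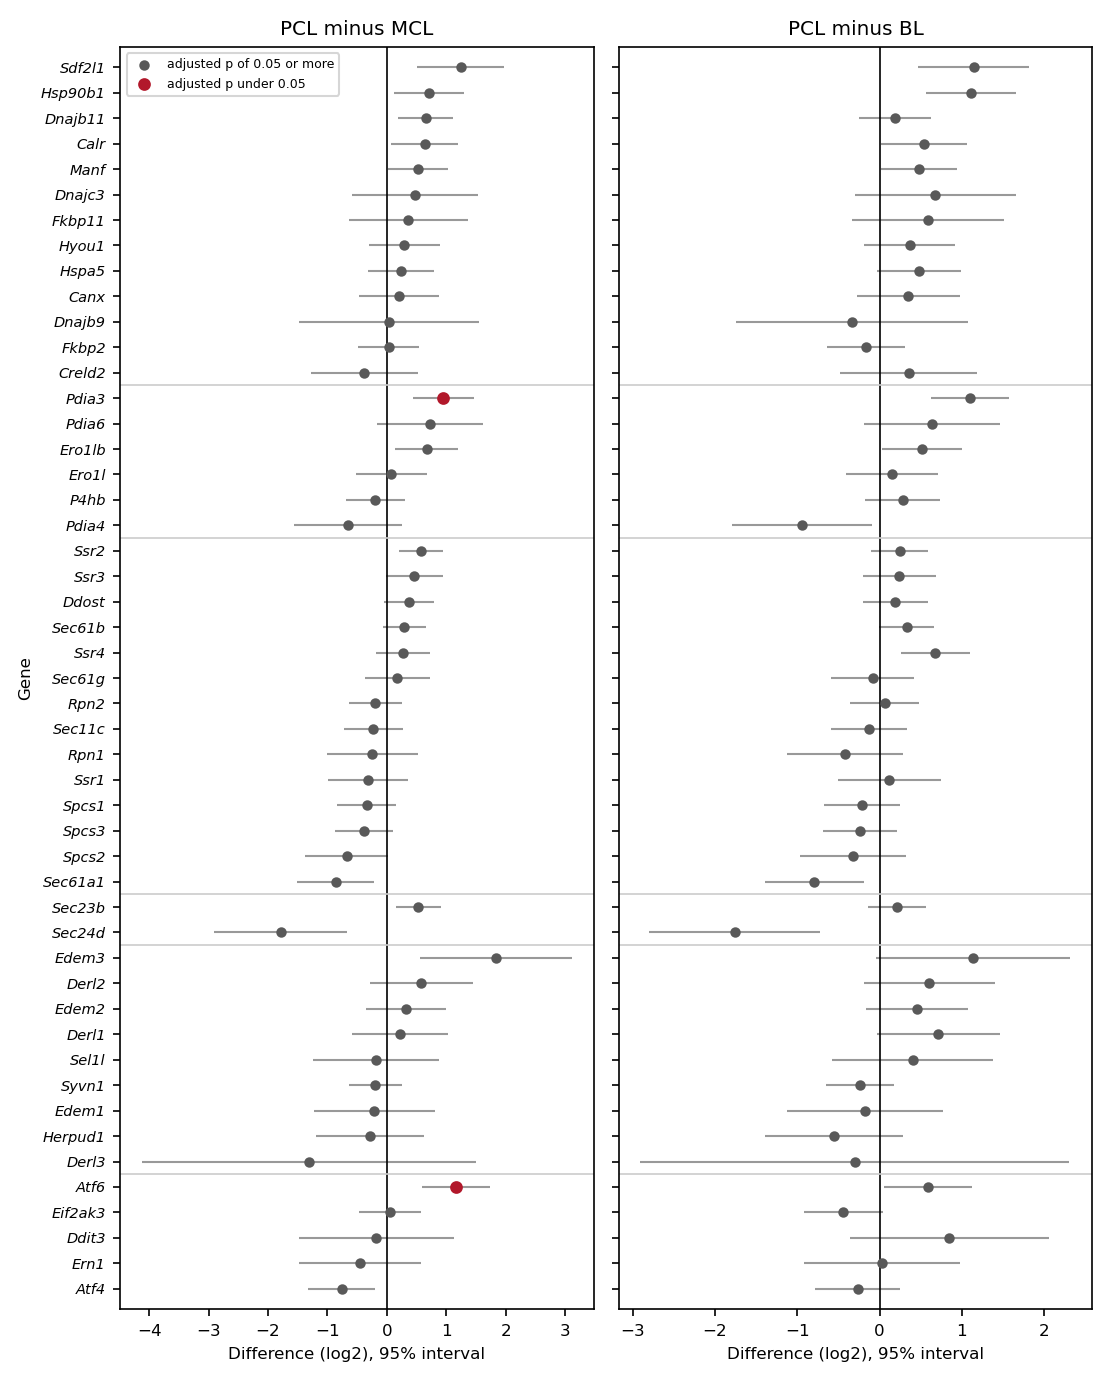
Difference of means in log2 units (x axes) with its 95% interval for the 49 genes (rows, by role), PCL minus MCL on the left and PCL minus BL on the right. Red points have an adjusted p under 0.05, which Pdia3 and Atf6 do against MCL and no gene does against BL; most chaperone points lie right of 0.

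PCL1 stood apart from the other PCL tumours. It lay below all of PCL2, PCL3 and PCL4 in 26 of the 49 members (53.1%) and above all of them in 11 (22.4%), while over all genes it was below in 33.5% and above in 37.5%. After subtraction of each gene's mean, the chaperone median was -0.13 in PCL1 and 0.33, 0.55 and 0.09 in PCL2, PCL3 and PCL4, and between -0.35 and -0.06 in the MCL and BL tumours. For the degradation genes the medians were -0.42 in PCL1 and 0.11, 0.27 and 0.50 in the others. Without PCL1 the members called between PCL and MCL were Atf6, Dnajb11, Edem3, Ero1lb, Hsp90b1, Pdia3, Sdf2l1 and Sec23b, higher in PCL, and Sec24d, lower. Those called between PCL and BL, all higher in PCL, were Derl1, Edem3, Ero1lb, Hsp90b1, Pdia3 and Sdf2l1.

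Marker lists of cell types, all but that of B cells, also had a lower median in PCL1 than in the other PCL tumours. Of 17 macrophage markers 15 were tested, and their centred median was -0.96 in PCL1, against 2.74, 1.31 and 1.78 in PCL2, PCL3 and PCL4 and -1.85 to 0.25 in the other types. Their summed level, in multiples of the array's 75th percentile, ran from 13.7 to 38.5 in PCL, from 13.9 to 21.3 in MCL and from 10.0 to 22.1 in BL. The 7 plasma cell markers had centred medians of -0.25 in PCL1 and 0.46 to 0.65 in PCL2 to PCL4, with 0.50 in MCL1 and -1.36 to 0.12 in the other MCL and BL tumours. Their summed levels ran from 6.58 to 19.8 in PCL, 7.73 to 10.4 in MCL and 4.46 to 10.1 in BL. The 9 granulocyte markers had -1.54 in PCL1, 0.02 to 3.13 in PCL2 to PCL4 and -2.14 to 1.84 in the other types. T cell markers were at -0.09 in PCL1 and -0.03 to 0.03 in the other PCL tumours, and stroma and endothelium markers at -0.33 and -0.24 to 1.54. Both lists were thus lowest in PCL1 too, by a small margin. B cell markers were at -0.08 in PCL1, inside the range of -0.48 to 0.10 of the others. All 7 B cell markers were well above background on every array. The part of macrophages, granulocytes, plasma cells, T cells and stroma in the member values was not tested. In these bulk samples fewer cells of a type and less RNA per cell cannot be told apart.

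**Figure D5:**
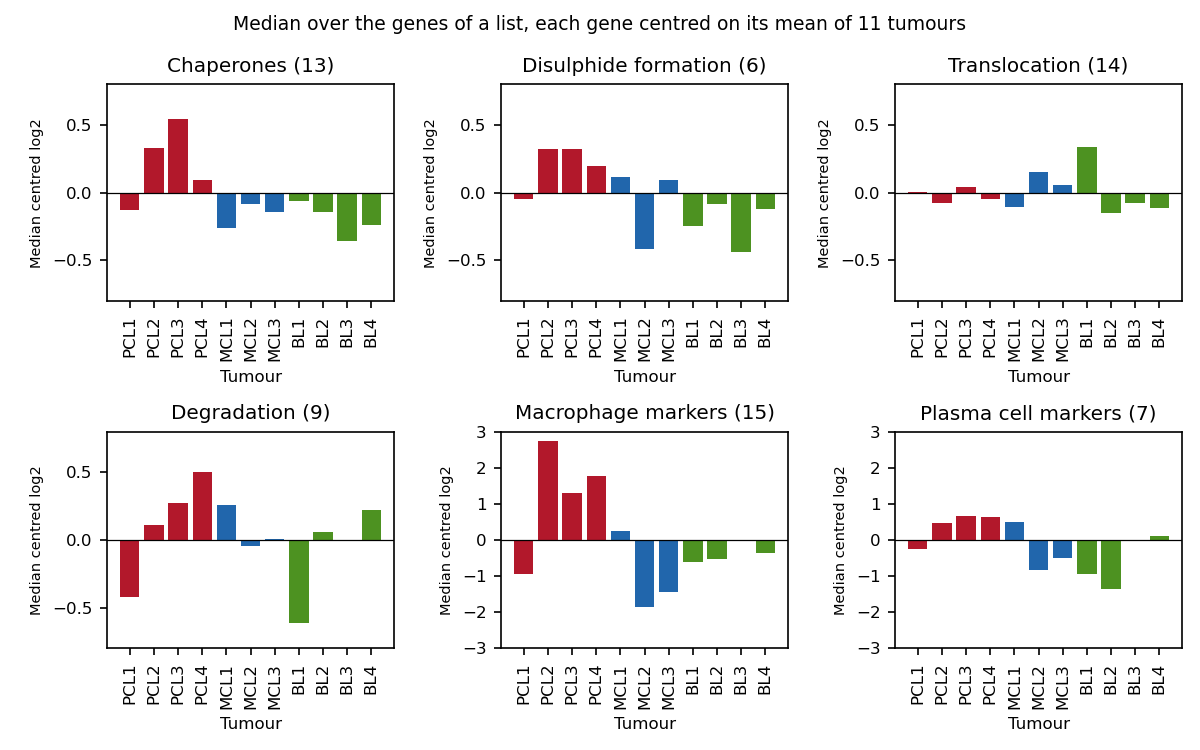
Median over the genes of a list, after subtraction of each gene's mean (y axis, log2 units; the marker panels have a wider scale), by tumour (x axis; red PCL, blue MCL, green BL). PCL1 lies below PCL2 to PCL4 in the chaperone, disulphide and degradation panels and in both marker panels.

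Some of the members that ran against the chaperones lay on 1 chromosome, a grouping made after the values were seen. Edem1, Eif2ak3, Pdia4, Rpn1 and Sec61a1 have their probes on chromosome 6. Of these, 4 were lower in PCL than in MCL and 5 lower than in BL, with medians of -0.25 and -0.44, where the other 44 members had 0.23 and 0.31. Of those 44, 16 were lower in PCL than in MCL and 12 lower than in BL, Sec24d in both. All 1042 genes of chromosome 6 that were tested had medians of -0.41 and -0.31, and the genes on the other chromosomes -0.01 and 0.10. PCL1 lay above PCL2, PCL3 and PCL4 in 4 of the 5 members, as it did in 57.8% of the genes of chromosome 6 and 36.5% of the genes elsewhere. The part of chromosome 6 in the member values was not tested.

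Further genes of the pathway, 113 by name and 110 of them tested, gave the surroundings of these members. PCL against MCL called 6 of the 110, 2 higher and 4 lower in PCL, against 6.85% of all genes. PCL against BL called none, against 0.659%, and MCL against BL called 2, both higher in MCL, against 6.62%. These counts do not stand above those of all genes. Xbp1, the factor whose mRNA Ire1 splices, read 2.01, 2.51, 3.20 and 2.19 in PCL, 2.92, 2.42 and 2.48 in MCL and 1.57, 1.94, 2.31 and 2.65 in BL. The types overlapped, and the differences were -0.13 (-0.86 to 0.61) from MCL and 0.36 (-0.32 to 1.05) from BL, for total Xbp1 mRNA. Of 12 regulators none was called, and the smallest p in the F test belonged to Creb3 (-0.58 against MCL, adjusted p = 0.0998) and Creb3l2 (-1.95, adjusted p = 0.103).

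Targets of Atf4 held most of these calls. Of 16 tested, 4 were called between PCL and MCL, where 6.85% of all genes were. Chac1, which degrades glutathione, read -2.65, -2.55, -2.81 and -2.30 in PCL, 0.13, -1.67 and 0.01 in MCL and -3.27, -2.58, -3.02 and -3.92 in BL. MCL lay above both other types without overlap, by 2.06 ± 0.44 over PCL (adjusted p = 0.0263) and 2.69 ± 0.44 over BL (adjusted p = 0.00793), with MCL2 the lowest MCL tumour. Cebpg was lower in PCL than in MCL by 0.94 ± 0.21 (adjusted p = 0.031), and Atf5 by 2.54 ± 0.61 (adjusted p = 0.0376). Atf3, a stress-induced factor, was higher in PCL, by 3.35 ± 0.87 over MCL (adjusted p = 0.0485), with all 4 PCL tumours, at 2.64 to 3.45, above the 7 others. The lowest PCL tumour was again PCL1. Among the other settings the call against MCL was lost under 14 of 23 for Atf3, 10 for Atf5, 8 for Cebpg and 8 for Chac1.

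Outside that list the called genes were few. Ube2j1, the ubiquitin-conjugating enzyme of ERAD, was higher in PCL than in MCL by 1.53 ± 0.36 (adjusted p = 0.035). It read 3.90 in PCL1 and 4.91 to 5.16 in the other PCL tumours, against 2.45 to 3.71 elsewhere. Kdelr1, a receptor that returns chaperones from the Golgi, was lower in PCL than in MCL by 0.71 ± 0.17 (adjusted p = 0.037). In the contrast of PCL with BL neither passed, at adjusted p = 0.0575 for Ube2j1 and 0.101 for Kdelr1. The call of Ube2j1 was lost under 9 of 23 other settings and that of Kdelr1 under 11. Sec13, a COPII coat subunit, was called by the F test (adjusted p = 0.0404), with BL highest at 2.37 to 3.02 against 1.67 to 2.23. This call of Sec13 was lost under 13 of 22 other settings. Ubxn4, an ERAD factor, was well above background on the 3 MCL arrays and on no PCL or BL array, so it passed the filter through MCL alone. Its measured signal in MCL was 5.03-fold that in BL (adjusted p = 0.00648), and 2.79-fold a floor set for BL. With that filter and BL values at background, the call is not taken as support. That floor takes, per array, the higher of the probe's own signal and the dimmest signal of any probe that passed as well above background. Of 18 further folding genes and 19 further translocation genes none was called; the smallest p in the F test belonged to Fkbp14 and Mzb1, and to Magt1 and Tram2, with adjusted p from 0.0975 to 0.121.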

How the data were processed

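RNA of 11 tumours was read on 1-colour Agilent arrays, 0.2 micrograms each, labelled with Cy3, per the labels' protocols. The deposited scanner files hold processed signals, an intensity on a linear scale; per the file headers, Agilent's extraction software was version 10.7.3.1. Between 21.5% and 29.2% of spots hold a substitute value. The authors' value table, log2 as found from the values, was an alternative; the steps by which the authors made these log2 values are not given in the sources used here. Outlier spots were left out (46 probes lost), spots of a probe averaged, each array's 75th percentile subtracted in log2, and 25296 probes kept, those well above background on 3 arrays or more; the brightest probe stood for a gene. limma 3.58.1 in R 4.3.3 fitted a mean per type, with 8 residual and 2.01 prior degrees of freedom. In data simulated for PCL minus MCL over 20182 genes, 100 genes were changed by 1 unit and 100 by 2 units, of which 19% and 59% were called. The real contrast called 1383 genes, and the adjustment is stricter where fewer genes change, so these shares need not hold there. Members were matched by the name in the files, other genes by accession and symbol (RefSeq, GRCm38.p6). The members and lists were chosen with earlier results of these data known. Named were all called members, the 4 members of each role with the smallest p in the F test (both COPII genes), all sensors, Hspa5, Xbp1, and of the other lists the called genes or else the 2 with the smallest p; other members named were chosen after their values were seen. Another probe is given where it differs in sign or by over 1 unit for a difference of PCL from another type, at named genes and Ssr1, and for Pdia6. The number of arrays, 3 or 4 a type, limits the precision. Protein sequences were not used here.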

Additional observations from a re-analysis of the deposited data

Results flagged for a closer look

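In 6 of 78 groups of 4 tumours, the PCL or the BL tumours for 1 gene, the highest or lowest tumour stood far from the other 3 by Dixon's test at the 95% level, where chance gives about 1 group in 20. Pdia4 read 0.67 in PCL1, with the next PCL tumour at -0.55. Derl1 read 0.60 in PCL1, with the next PCL tumour at 1.88. Creb3 read -0.20 in PCL1 and -0.05 in the next. Sec61a1 read 5.19 in BL1 and 4.24 in the next BL tumour. Kdelr1 read -0.056 in BL3 and -0.44 in the next, and Ubxn4 -5.43 in PCL3 and -5.87 in the next, the latter not well above background in either.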

How the results depend on the processing

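Directions of Pdia3, Atf6, Hsp90b1, Sdf2l1 and Sec24d between PCL and the other types held under every alternative run, and the medians of chaperones and disulphide genes kept their sign against both; calls did not hold. Members called by the F test, by PCL against MCL and by PCL against BL numbered 3, 2 and 0 here, 0, 0 and 0 after normexp background correction, 2, 3 and 0 after quantile normalization, 1, 0 and 0 with arrays centred on their median, 5, 4 and 1 by the authors' values, 1, 0 and 0 without a filter on dim probes, 5, 3 and 1 with probes well above background on all arrays, and 14, 15 and 10 with array quality weights, which gave PCL1 a weight of 0.382 and PCL2 2.77. With the RNA integrity number as a covariate they numbered 2, 2 and 0. With only the types compared, PCL against MCL called 0. Leaving out 1 tumour gave 0 to 9, 0 to 9 and 0 to 6, and MCL against BL called 0 members throughout. Genes called by the F test, PCL against MCL, PCL against BL and MCL against BL numbered 1690, 1383, 133 and 1336; with normexp 128, 192, 13 and 64; with quantile normalization 771 for MCL against BL; with median centring 531 and 300 in the last 2; by the authors' values, 675 in the last; without a filter 1042, 686 and 85 in the first 3; with weights 4751, 4433 and 2181; with 2 types 740 (PCL against MCL) and 290 (MCL against BL); leaving out 1 tumour 671 to 2845, 330 to 2474, 3 to 1083 and 620 to 1374.

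Median centring moved the median of all genes for PCL minus BL from 0.09 to -0.17 and for MCL minus BL from 0.06 to -0.19, and that of the members for PCL minus BL from 0.24 to -0.03. The share of PCL against BL calls higher in PCL was 69.2%, and 38.5% with normexp, 20.5% with median centring, 57.9% with quantile normalization, 51.9% by the authors' values, 51.7% with the stricter filter and 54% with weights. Array positions are the replicate numbers. Deviations of same-numbered tumours correlated between -0.0463 and 0.172, so the numbers were not taken as pairs. With position as a replicate block 0 members were called, and 342, 390, 65 and 361 genes. Every member's brightest probe was well above background on all arrays. The cause of these changes was not tested.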
